A study of Homo sapiens with 16 samples.

Results

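RPMI-8226, a human multiple myeloma cell line, was grown with 2 inhibitors of histone methylation together, GSK126 and UNC0638, and its mRNA was compared with that of cells grown with the solvent DMSO alone. The comparison rests on 4 of the 16 arrays of the series, the 2 labelled GSK126 + UNC0638 and the 2 labelled DMSO in RPMI-8226, and the arrays were chosen by these labels and by no measured value. GSK126 inhibits EZH2, and UNC0638 inhibits G9a (gene name EHMT2) and its partner GLP. Each inhibitor was given at 1 μM for 6 days, alone or with the other, and the same 4 treatments were given to a second myeloma line, MM.1S, with 2 arrays for each treatment and line. The 2 arrays of a treatment were biological replicates of 1 cultured line with no genetic change made to it, so the p-values below measure the spread between those cultures. The RNA came from whole cultures, in which fewer cells of a type and less RNA per cell cannot be told apart.

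EZH2 is the catalytic subunit of the polycomb repressive complex PRC2, which trimethylates lysine 27 of histone H3 (H3K27me3) at silent genes, many of them developmental. G9a and GLP dimethylate lysine 9 of the same histone (H3K9me2), and both marks are found at repressed chromatin. Type I interferons act through the JAK kinases, and a factor complex that contains IRF9 then binds interferon-stimulated response elements (ISREs) in the promoters of interferon-stimulated genes. A malignant plasma cell keeps much of the program of its normal counterpart, in which IRF4 and PRDM1 maintain the antibody-secreting state. The comparison asked which genes and pathways were raised and lowered when both marks were targeted at the same time.

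Each array was a single-colour microarray with 60-base probes, and a level below is the log2 intensity of a probe minus the 75th percentile of its own array, so that 0 is the percentile and 1 unit is a doubling. A log2 fold change is the mean level on the combination arrays minus the mean on the DMSO arrays, and SE is its standard error. Levels are compared between arrays for 1 probe and never between probes. For cell type markers, intensities are also summed over probes, and the sums are compared between arrays. A change was called where the adjusted p, over all 22759 probes that were well above background on the 2 DMSO arrays, on the 2 combination arrays or on all 4, was under 0.05, and "rose" and "fell" are used only for called probes. On the 8 RPMI-8226 arrays between 46.5% and 49.7% of spots were well above background, none was saturated, and the 2 arrays of a treatment correlated at 0.986 to 0.991. Where neither array of a group read a probe well above background, the group has only a bound. Its change is given as at least N-fold, the mean of the brighter group set against, on each array, the higher of the dimmest signal well above background and the probe's own signal.

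With both inhibitors, 1692 probes were called higher (7.43%) and 1240 lower (5.45%), and 1367 of the former and 479 of the latter changed by more than 2-fold. With 1 probe for each gene, 1182 of 13755 genes were called higher (8.59%) and 679 lower (4.94%), and the median over all genes was -0.10. The count depended on the arrays present: it fell from 2932 to 1030 without combination replicate 1, to 1362 without DMSO replicate 2, to 1415 without DMSO replicate 1 and to 1917 without either UNC0638 array. With the replicate number as a block it rose to 4990, of which 2514 were higher and 2476 lower. The share of calls that were higher was 57.7% and moved to 74.7% when the percentile was taken over probes detected on all arrays, a scaling that took the median of all probes from -0.13 to 0.00. It was 77.5% with no filter on dim probes, 74.8% with only the 4 arrays in the fit, 45.8% when a probe had to be well above background on all 4 arrays and 41.6% in a fit over all 16 arrays. Of the probes called higher, 683 were below this mark on both DMSO arrays, and 107 of those called lower were below it on both combination arrays. Such a probe could only enter through the group in which it was high.

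**Figure D1:**
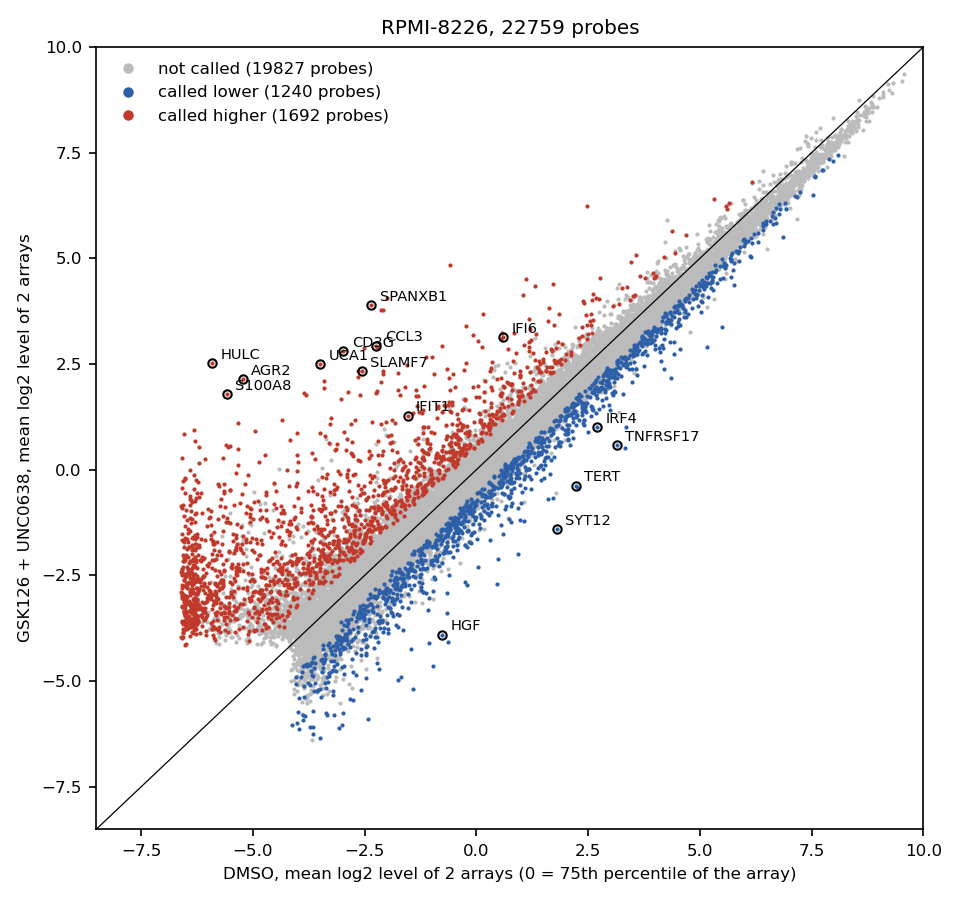
Mean level on the 2 DMSO arrays (x axis) and on the 2 GSK126 + UNC0638 arrays (y axis) in RPMI-8226, both as log2 intensity relative to each array's 75th percentile, with 1 point per probe and called probes coloured by direction. The 1692 probes called higher spread far from the diagonal at the low end of the DMSO axis, and the 1240 called lower lie closer to it.

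The inhibitors act on the proteins, and the mRNAs of the 2 targets differed little. EZH2 was at 2.84 and 2.98 on the DMSO arrays and at 2.56 and 2.67 on the combination arrays, a log2 fold change of -0.30 (SE 0.14, adjusted p = 0.193). EHMT2 was at 1.27 and 0.91 with DMSO and at 0.48 and 0.64 with the combination (-0.53, SE 0.22, adjusted p = 0.159). Neither was called, although for each gene both combination arrays lay below both DMSO arrays. Such a separation was common: it held for 9020 of the 22759 probes, and the reverse for 5067, so it says little about these 2 genes. Of 41 measured genes for PRC2, H3K9 and DNA methylation enzymes and their partners, 1 was called (2 higher and 2 lower with the replicate number as a block): KDM4C, a demethylase of H3K9, rose by 0.61 (adjusted p = 0.0387), a call that was lost without any 1 of the DMSO, UNC0638 or combination arrays (adjusted p up to 0.181).

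The gene lists below were read against the shares for all genes, 8.59% called higher and 4.94% called lower. Interferon-stimulated effectors and chemokines and cytokines were called higher more often than that, and zinc finger genes of chromosome 19 and genes of the amino acid response were called lower more often. They were not alone in this. Among others, 33.3% of B and plasma cell factors, 29.2% of cancer-testis antigens and 27.3% of interferon and JAK-STAT genes were called higher. Of secretory pathway genes 15.2% and of glycolysis genes 14.3% were called lower. Homing and adhesion genes exceeded both shares (25% higher, 14.3% lower). With the replicate number as a block 1720 genes were called higher and 1343 lower, and a list's count with the block is given below where it moved by more than 1.5 times. Members that passed the filter through the combination arrays alone had to be higher there. Medians without that filter are therefore given beside those over the measured members where they differ. A gene with several probes is represented by the one with the highest mean level, and for 65 list genes some but not all probes were called, none of them in opposite directions. Among the genes named below as called, this held for KDM4C, IER3, CANX, FAS, CFLAR, PPP1R9A, H2BC12 and TRIM14.

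**Figure D2:**
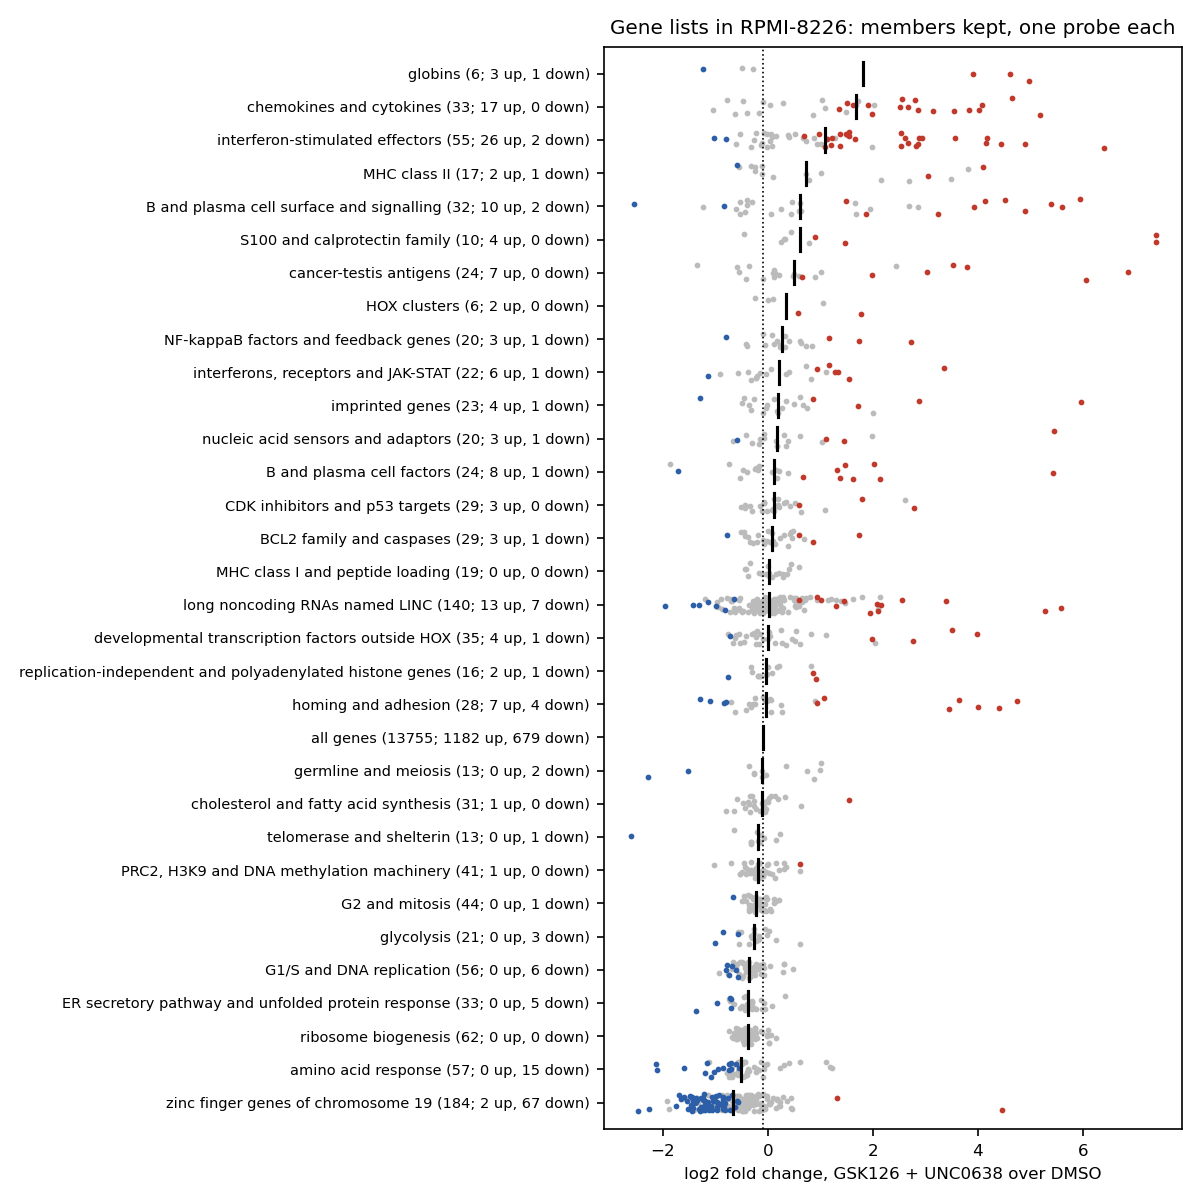
Log2 fold change, GSK126 + UNC0638 over DMSO, of each measured member of the gene lists, 1 probe per gene, with called genes in red (higher) or blue (lower), others in grey, the list's median as a black bar and the median of all 13755 genes as a dotted line. The list label gives the measured members and how many were called. Interferon-stimulated effectors, with 26 of 55 called higher, lie mostly right of the dotted line, and the zinc finger genes, with 67 of 184 called lower, lie mostly left of it.

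Interferon-stimulated effector genes rose more often than genes at large: 26 of 55 measured members were called higher (47.3%) and 2 lower, with a median of 1.10. IFIT1, which binds foreign RNA lacking the host cap, rose by 2.82, and ISG15, a ubiquitin-like modifier, by 1.55. Their promoters, and those of IFI6 and OAS3, are shown because they carry the ISRE, and those of IFITM1 and TRIM14 are shown because these were the 2 members that fell although they carry it too. The ISRE was searched on both strands as GAAA, any 2 bases and GAAA again, which reads TTTC, 2 bases and TTTC on the other strand, and neighbouring matches can overlap. Each line gives the 160 bases before the start of the gene, 5′ to 3′ on the gene's strand, with matches in capitals, from the RefSeq promoters of GRCh38.p14. A second match in IFITM1 begins 6 bases before the start and runs past it, so it is left in lower case. The stretches lie at chr1:27672193-27672352 (IFI6, minus strand), chr10:89392463-89392622 (IFIT1, plus), chr1:1013337-1013496 (ISG15, plus), chr12:112938314-112938473 (OAS3, plus), chr11:313880-314039 (IFITM1, plus) and chr9:98119223-98119382 (TRIM14, minus).
IFI6: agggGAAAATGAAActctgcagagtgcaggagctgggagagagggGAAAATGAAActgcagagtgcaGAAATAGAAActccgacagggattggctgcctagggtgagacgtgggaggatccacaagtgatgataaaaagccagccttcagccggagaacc
IFIT1: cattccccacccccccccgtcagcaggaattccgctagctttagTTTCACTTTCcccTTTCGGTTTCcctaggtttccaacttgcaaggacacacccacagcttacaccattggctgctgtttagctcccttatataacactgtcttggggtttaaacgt
ISG15: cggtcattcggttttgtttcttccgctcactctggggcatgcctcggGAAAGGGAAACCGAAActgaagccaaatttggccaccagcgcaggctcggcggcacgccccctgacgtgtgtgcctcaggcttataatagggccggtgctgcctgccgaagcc
OAS3: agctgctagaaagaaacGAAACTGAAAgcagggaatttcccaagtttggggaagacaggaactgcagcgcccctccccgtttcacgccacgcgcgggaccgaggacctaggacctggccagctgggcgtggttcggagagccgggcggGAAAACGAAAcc
IFITM1: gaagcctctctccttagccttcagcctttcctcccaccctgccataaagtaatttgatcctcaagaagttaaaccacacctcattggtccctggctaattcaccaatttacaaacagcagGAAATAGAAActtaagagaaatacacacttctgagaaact
TRIM14: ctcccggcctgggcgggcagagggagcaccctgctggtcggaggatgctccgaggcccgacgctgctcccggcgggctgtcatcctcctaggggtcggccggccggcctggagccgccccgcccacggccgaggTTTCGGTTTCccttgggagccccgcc

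IFI6 held 3 matches, and IFIT1, ISG15 and OAS3 held 2 each, the pair in ISG15 sharing letters. In windows from 250 bases before to 50 bases after the start, the ISRE was present in 31 of 44 measured effector genes that have a window (70.5%) and in 18 of the 23 called higher (78.3%). It was present in 315 of 10717 measured genes (2.94%) and in 996 of all 27305 windows (3.65%). Among all genes called higher 56 of 935 held it (5.99%), and among those called lower 9 of 501 (1.8%). The list is made of genes known for their response to interferon, so its share of ISREs describes the list and was not read as a result of the inhibitors.

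The levels behind these changes were as follows. IFIT1 (probe at chr10:91163438-91163497 of GRCh37) was at -1.85 and -1.23 on the DMSO arrays and at 0.95 and 1.60 on the combination arrays (SE 0.42, adjusted p = 0.00936, and 0.0563 without DMSO replicate 1). ISG15 (chr1:949567-949626) was at 2.48 and 2.72 with DMSO and at 4.01 and 4.29 with the combination (SE 0.23, adjusted p = 0.0082, and 0.0505 without DMSO replicate 1). IFI6 (chr1:27992837-27992896), a mitochondrial protein that opposes cell death, was at 0.43 and 0.79 with DMSO and at 2.96 and 3.32 with the combination, a rise of 2.53 (SE 0.43, adjusted p = 0.0146). For all 3 genes the lower combination array was far above the higher DMSO array. The call for IFI6 was lost without any 1 of the 4 arrays compared (adjusted p up to 0.0773).

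OAS3, a synthase of the messenger that activates RNase L, was not well above background with DMSO and rose at least 5.97-fold (adjusted p = 0.0132, and up to 0.072 without either combination array). UBD, a ubiquitin-like protein induced by interferon gamma, was at -6.43 and -6.37 with DMSO, not above background, and at 0.11 and -0.10 with the combination, at least 21.1-fold higher (adjusted p = 0.000211). UBD was the 1 member called higher than with GSK126 alone as well as UNC0638 alone. The helicase-like DDX60L rose at least 3.92-fold, and IFI44L at least 11.6-fold, the latter with adjusted p up to 0.0692 without DMSO replicate 1 or either combination array. IFI27 varied most between replicates, at -3.08 and -1.11 with DMSO and 1.54 and 3.13 with the combination (4.43, SE 0.98, adjusted p = 0.0337, and up to 0.132 without any 1 of those 4 arrays).

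2 effectors fell. IFITM1, a membrane protein that restricts virus entry, was at 5.67 and 5.81 with DMSO and at 4.46 and 4.99 with the combination, a fall of 1.02 (log2 fold change -1.02, SE 0.23, adjusted p = 0.037). TRIM14, an adaptor of mitochondrial antiviral signalling, was at 1.58 and 1.33 with DMSO and at 0.59 and 0.73 with the combination (-0.79, adjusted p = 0.028). The 2 groups did not overlap for either gene, but both combination arrays lay below both DMSO arrays for 9020 of the 22759 probes. The call for IFITM1 was lost without either DMSO or UNC0638 array or combination replicate 1 (adjusted p up to 0.177), and that for TRIM14 without any 1 of the 4 arrays compared (up to 0.152). With no filter neither of the 2 was called, and 17 members were called higher. The count of 26 went to 10 without combination replicate 1, 11 without replicate 2, 14 without DMSO replicate 1 and 16 without DMSO replicate 2, and 7 members were called whichever of the 8 arrays was left out.

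The single agents were set beside the combination. The list's median was 0.67 with GSK126 alone, -0.03 with UNC0638 alone and 1.10 with both, all against the same DMSO arrays. Set against the single agents directly, 12 of the 26 were called higher than with UNC0638, among them ISG15 (adjusted p = 0.0098) and IFIT1 (0.027), whereas 1 was called higher than with GSK126. Over all probes 2.83% were called higher than with UNC0638 and 2.1% higher than with GSK126. The 26 were picked for high values on the same combination arrays, so their counts are tilted upward by that choice. ISG15 was at 3.76 and 3.22 with GSK126, 2.21 and 2.43 with UNC0638, and 4.01 and 4.29 with both.

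**Figure D3:**
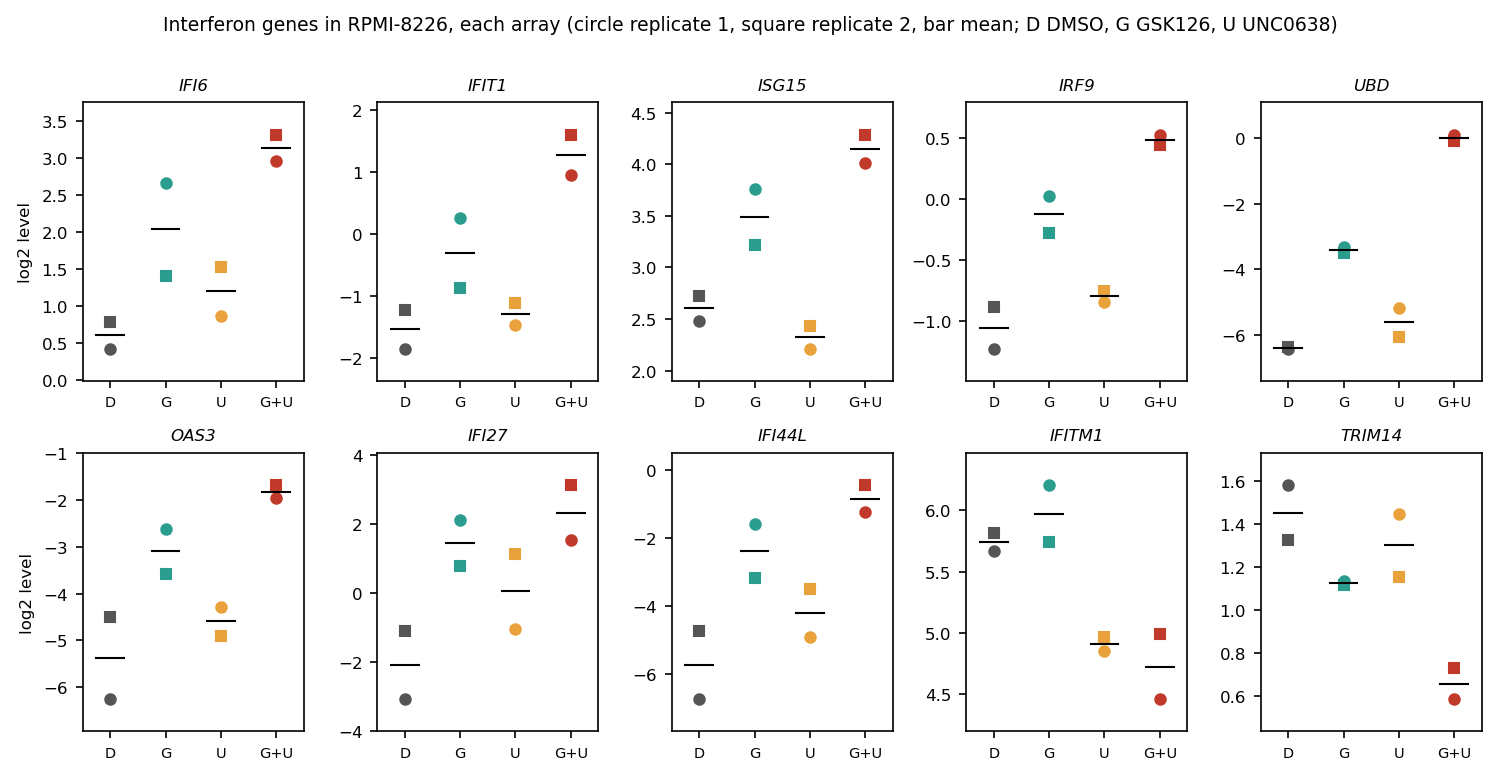
Level on each RPMI-8226 array (log2 intensity relative to the array's 75th percentile, y axis) of 10 interferon-stimulated and signalling genes under DMSO (D), GSK126 (G), UNC0638 (U) and both (G+U), with a circle for replicate 1, a square for replicate 2 and a bar at the mean. Both combination arrays lie above both DMSO arrays for the first 8 genes, and below them for IFITM1 and TRIM14. Of all 22759 probes, 5067 were separated upward in this way and 9020 downward. The UNC0638 arrays of ISG15 lie below its DMSO arrays.

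Among the interferons, their receptors and the JAK-STAT pathway, 6 of 22 measured genes rose and 1 fell, with a median of 0.21, or 0.06 with no filter. Most interferon genes themselves were not measured. IFNA2, IFNB1, IFNE, IFNG, IFNK, IFNL1 and IFNL3 did not pass the filter, and no probe was matched to IFNA1. The transcription factor subunit IRF9 was at -1.23 and -0.89 with DMSO and at 0.53 and 0.44 with the combination, a rise of 1.54 (SE 0.18, adjusted p = 0.0036). The call held whichever array was left out, and the gene was higher with the combination than with UNC0638 alone (adjusted p = 0.014). The receptor chain IFNGR1 rose by 1.29 (adjusted p up to 0.073 without DMSO replicate 1 or combination replicate 2), and USP18, the ISG15 protease that dampens the receptor, at least 2.22-fold (up to 0.0634 without either DMSO array or combination replicate 2). IRF8, a factor of myeloid and B cells named here after its value was seen, fell from 1.31 and 0.99 to 0.10 and -0.06 (-1.13, adjusted p = 0.00717). The 6 calls became 3 without DMSO replicate 1 and 4 without either combination array.

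Nucleic acid sensors moved little as a group, with 3 of 20 called higher (6 with the block), 1 lower and a median of 0.17. For the RNA sensor RIGI, 1 of its 2 probes was called higher, but not the one with the highest mean level. TLR7, the endosomal receptor for single-stranded RNA, was the largest rise, at least 16.7-fold (adjusted p = 0.00123). The DNA sensor AIM2 rose by 1.45 and the factor IRF7 by 1.10, with adjusted p up to 0.135 and 0.0725 when 1 array was left out (any DMSO, GSK126 or combination array for AIM2, and DMSO replicate 1 or either combination array for IRF7). The DNA sensor CGAS fell by 0.59 (log2 fold change -0.59, adjusted p = 0.0366, and up to 0.137 without any 1 of the DMSO, UNC0638 or combination arrays).

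Few antigen presentation genes were called, at shares near those of all genes. On the probes used for the list none of 19 measured genes of MHC class I and peptide loading was called (1 higher with the block), with a median of 0.03 and values from -0.43 to 0.59. A second probe was called higher for HLA-B (0.94, adjusted p = 0.034) and for HLA-F (1.78, adjusted p = 0.0123). Of 17 measured genes of class II, 2 rose (11.8%) and 1 fell (5.88%), and 7 were called higher with the block, with a median of 0.74 that became -0.11 over members well above background on all 4 arrays. HLA-DQA1, a class II chain, was at -6.36 and -6.19 with DMSO, not well above background, and at -2.50 and -1.84 with the combination, at least 4.66-fold higher (adjusted p = 0.000284). HLA-DMA, which loads peptides onto class II, rose by 3.05 (adjusted p up to 0.0678 without DMSO replicate 1 or either combination array). IFI30, a thiol reductase of the lysosome, fell by 0.58 (log2 fold change -0.58, adjusted p up to 0.177 without any 1 of the DMSO, UNC0638 or combination arrays). HLA genes are similar in sequence, so a probe may read more than 1 of them.

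Chemokines and cytokines held 17 called higher of 33 measured (51.5%) and none called lower, out of 61 on the array. Their median was 1.68, and 0.72 with no filter, since 7 of the 33 passed through the combination arrays alone. CCL3, a macrophage inflammatory chemokine, was at -2.64 and -1.84 with DMSO and at 3.55 and 2.32 with the combination, a rise of 5.18 (SE 0.57, adjusted p = 0.00301). CXCL6, which attracts neutrophils, was at -3.64 and -3.72 with DMSO and at 0.61 and 0.18 with the combination (4.07, SE 0.17, adjusted p = 0.000191). CXCL9, an interferon-inducible ligand of CXCR3, was at -1.47 and -1.64 with DMSO and at 2.16 and 2.79 with the combination (4.03, SE 0.26, adjusted p = 0.000469). All 3 were far outside the spread of the replicates, and their calls held whichever array was left out.

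CCL4, a neighbour and near copy of CCL3, rose at least 8.52-fold. CXCL6, CXCL9 and CCL4 were each higher with both agents than with either alone, with adjusted p of 0.002 and 0.0039, 0.034 and 0.0058, and 0.032 and 0.0091 against GSK126 and UNC0638. CCL3 was higher than with UNC0638 (0.039), and against GSK126 its adjusted p was 0.066. The 17 calls became 9 without combination replicate 1 and 11 without replicate 2. With no filter, and also when all 4 arrays had to be above background, 11 were called.

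Among NF-κB factors and their feedback genes 3 of 20 rose (6 with the block) and 1 fell, with a median of 0.28. CD83, a maturation marker of dendritic cells, rose by 2.73 (adjusted p = 0.00624), BIRC3, an inhibitor of apoptosis, by 1.74 (0.00766), and IER3, an early response gene, by 1.16 (0.00652), and these 3 calls held without each array. The adhesion molecule ICAM1 fell by 0.79 (log2 fold change -0.79, adjusted p = 0.0387, and up to 0.194 without any 1 of the DMSO, UNC0638 or combination arrays).

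Plasma cell identity genes moved in both directions. IRF4, on which myeloma cells depend, was at 2.89 and 2.52 on the DMSO arrays and at 0.85 and 1.16 on the combination arrays, a fall of 1.70 (log2 fold change -1.70, SE 0.18, adjusted p = 0.00285, probe at chr6:411002-411061 of GRCh37). With GSK126 alone it was at 2.41 and 2.47 and with UNC0638 alone at 2.35 and 2.21, and the combination was below both (adjusted p = 0.012 and 0.017). The call held whichever array was left out.

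TNFRSF17 (BCMA), a survival receptor of plasma cells, fell from 3.20 and 3.08 to -0.00 and 1.18 (-2.55, SE 0.42, adjusted p = 0.013, and up to 0.0672 without either DMSO array). SDC1 (CD138), the surface proteoglycan that marks plasma cells, fell from 5.22 and 4.99 to 4.19 and 4.35 (-0.84, adjusted p = 0.0169, and up to 0.103 without DMSO replicate 1 or combination replicate 1). PRDM1 was at 2.10 and 2.15 with DMSO and at 1.66 and 1.81 with the combination (-0.39, adjusted p = 0.25), whereas its dimmer probe fell from 0.53 and 0.28 to -0.47 and -0.42 (-0.85, SE 0.19, adjusted p = 0.0358). The other secretory genes XBP1, JCHAIN and POU2AF1 had log2 fold changes of -0.23, -0.24 and -0.18 and were not called. KLF2, a factor upstream of homing receptors in plasma cells, was at -0.98 and 0.26 with DMSO and at -2.95 and -1.48 with the combination (-1.85, SE 0.71, adjusted p = 0.13). Its replicates differed by more than a doubling in every treatment, and with the replicate number as a block it was called (adjusted p = 0.00102).

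Of the factors of B and plasma cells, 8 of 24 measured rose and IRF4 was the 1 that fell, while 4 were called lower with the block. BCL6, the germinal centre repressor, rose from -2.71 and -2.49 to -0.63 and -0.55 (2.01, SE 0.17, adjusted p = 0.00121), and ID3, an inhibitor of E proteins, by 2.13 (adjusted p = 0.00176). The 8 calls became 5 without DMSO replicate 1 or combination replicate 1.

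B cell surface and signalling molecules held 10 called higher of 32 measured (31.2%), with a median of 0.62, and 2 called lower (4 with the block), and 7 of the 32 passed through the combination arrays alone. MS4A1 (CD20), which plasma cells normally lack, was at -6.27 and -6.18 with DMSO, not well above background, and at 0.24 and -0.81 with the combination, at least 17.2-fold higher (adjusted p = 0.000489). It was above each single agent (adjusted p = 0.0082 and 0.023 against GSK126 and UNC0638). SLAMF7, a surface receptor of plasma and NK cells, rose from -3.10 and -2.02 to 2.82 and 1.84 (4.89, SE 0.42, adjusted p = 0.00121). FCRLA, an Fc receptor-like protein of B cells, rose by 5.38 (adjusted p up to 0.0904 without DMSO replicate 1 or either combination array), and the FCGR2C probe at least 13.2-fold, although FCGR2A, FCGR2B and FCGR2C are near copies. With all 4 arrays required to be above background, 4 members of this list were called higher.

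**Figure D4:**
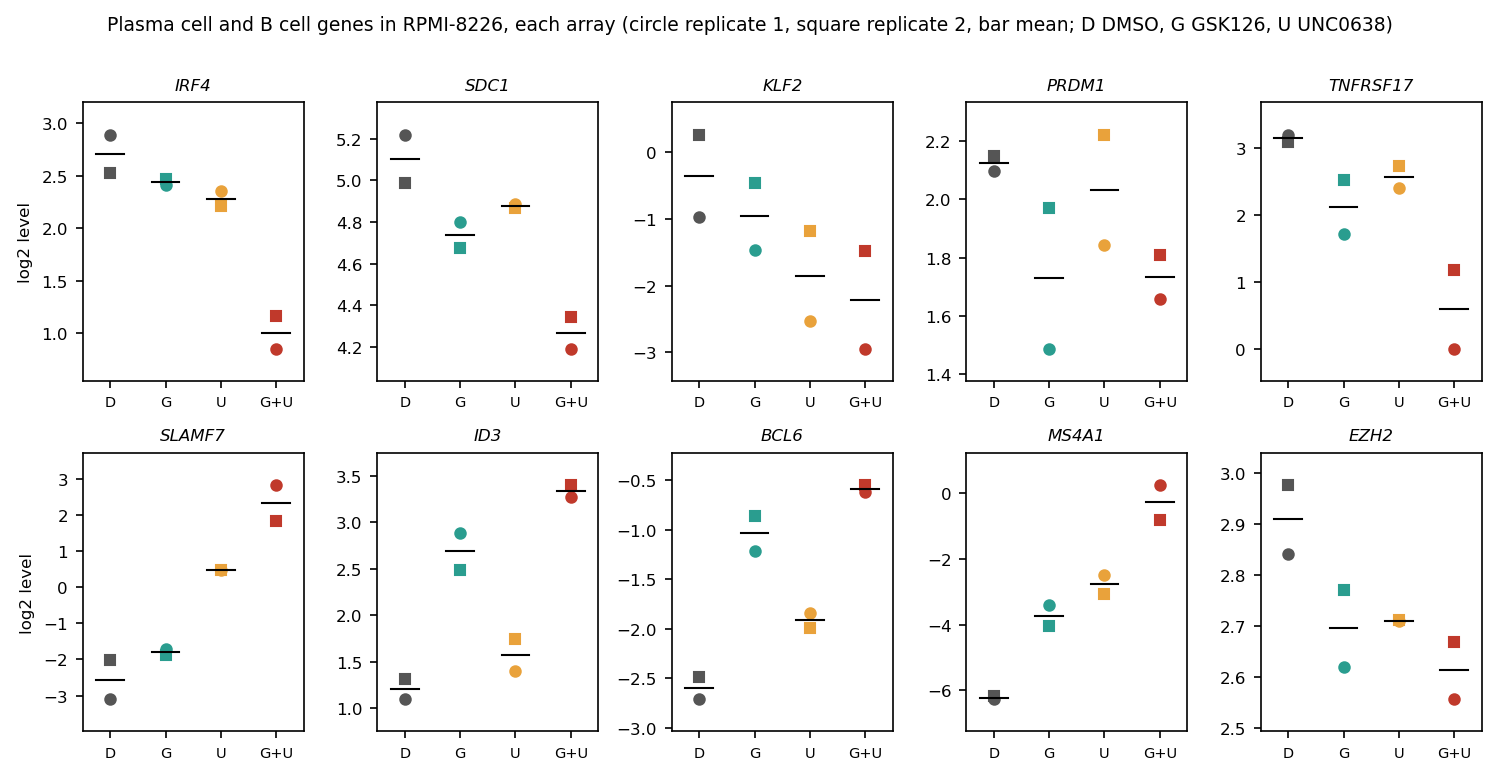
Level on each RPMI-8226 array (log2 intensity relative to the array's 75th percentile, y axis, scaled to each gene) of 10 plasma cell, B cell and target genes under DMSO (D), GSK126 (G), UNC0638 (U) and both (G+U), with a circle for replicate 1, a square for replicate 2 and a bar at the mean. IRF4 is slightly below both DMSO arrays on each array of either agent alone, and at 0.85 and 1.16 with both. MS4A1 lies between DMSO and the combination with either agent.

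Homing and adhesion genes split, with 7 of 28 called higher, 4 lower and a median of -0.03. Those that rose included the leukocyte integrins ITGAM (at least 11.4-fold, adjusted p = 0.00373) and ITGAX (at least 3.64-fold) and the lymph node receptor CCR7 (at least 7.61-fold). These 3 calls held without each array. The genes that fell were the adhesion molecules EPCAM, ICAM2, ICAM1 and SDC1, with log2 fold changes of -1.29, -1.10, -0.79 and -0.84, and without combination replicate 1 none of the 4 was called.

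Genes of the amino acid response fell more often than genes at large: 15 of 57 measured were called lower (26.3%) and none higher, with a median of -0.50, and with the block 22 were called lower and 4 higher. The list holds targets of ATF4, enzymes of amino acid synthesis, transporters and aminoacyl-tRNA synthetases. ASS1, which makes argininosuccinate in arginine synthesis, was at 5.56 and 5.45 with DMSO and at 3.29 and 3.49 with the combination on the probe used for the list (-2.12, SE 0.16, adjusted p = 0.000665). It was below GSK126 alone (adjusted p = 0.019) and below UNC0638 alone (0.0059). CHAC1, which degrades glutathione, fell from 0.84 and 0.34 to -1.32 and -1.70 (-2.10, SE 0.29, adjusted p = 0.00692), and the secreted hormone STC2 by 1.59 (log2 fold change -1.59, adjusted p = 0.00591). These 3 calls held whichever array was left out, and the other 12 did not.

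PSAT1, of serine synthesis, fell by 1.20 (log2 fold change -1.20, adjusted p = 0.0117, and up to 0.0747 without DMSO replicate 1 or combination replicate 1). ATF4 itself had a log2 fold change of -0.21 and was not called, nor were DDIT3 (0.40), TRIB3 (-0.39) and PHGDH (-1.11). The count of 15 went to 3 without DMSO replicate 1 or combination replicate 1, 6 without DMSO replicate 2 and 7 without either UNC0638 array. It was 9 with the percentile over detected probes and 5 both with no filter and with only the 4 arrays in the fit. The amino acid response element, searched as TGATGNAA on both strands, was in the promoter window of 14 of 46 members (30.4%) and of 5 of the 13 called lower (38.5%), against 1.82% of measured genes. Among all genes called lower the share was 3.19% and among those called higher 3.21%. The list is made of known ATF4 targets and related genes, so its share describes the list.

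Genes of the secretory pathway and the unfolded protein response had a median of -0.38, with 5 of 33 called lower (10 with the block) and none higher. TXNDC5, a disulfide isomerase of the endoplasmic reticulum, fell from 6.82 and 6.92 to 5.26 and 5.75 (-1.36, SE 0.24, adjusted p = 0.0159). The stress sensors ERN1 and ATF6 fell by 0.96 and 0.70 and the chaperone HSP90B1 by 0.72 (log2 fold changes of -0.96, -0.70 and -0.72), and the lectin chaperone CANX was also called (-0.70). The 5 calls became 0 without DMSO replicate 1 or combination replicate 1 and 1 without DMSO replicate 2, the adjusted p reaching 0.151 for HSP90B1 without DMSO replicate 1 or 2, either UNC0638 array or combination replicate 1.

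In glycolysis 3 of 21 fell and none rose (median -0.27), namely the lactate transporter SLC16A1 (-0.85, adjusted p up to 0.113 without any 1 of the 4 arrays compared), the phosphofructokinase PFKM (-0.56, up to 0.216 without any 1 of the 8 arrays) and, with the largest change, PDK1, a kinase that inhibits pyruvate dehydrogenase (from 2.61 and 2.81 to 1.47 and 1.94, adjusted p = 0.0349, and up to 0.173 without any 1 of the DMSO or UNC0638 arrays or combination replicate 1). Of 31 genes of cholesterol and fatty acid synthesis, 1 was called (2 higher and 2 lower with the block): SC5D, a desaturase of cholesterol synthesis, rose at least 1.75-fold (adjusted p = 0.011, and up to 0.0644 without DMSO replicate 2 or combination replicate 1).

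Proliferation genes had medians below that of all genes. G1/S genes were called lower more often than genes at large (4.94%), and calls were few or absent for G2 and mitosis and for ribosome biogenesis. For G1/S and DNA replication 6 of 56 were called lower and none higher, with a median of -0.35 and called values from -0.80 to -0.57. POLD1, the catalytic subunit of a replicative polymerase, fell by 0.74 (log2 fold change -0.74, adjusted p = 0.0146), and the cyclin CCND2 by 0.69 (-0.69, adjusted p = 0.0383). For G2 and mitosis 1 of 44 was called, the checkpoint kinase BUB1 (-0.66, adjusted p = 0.0285), with a list median of -0.22. Of the 6 calls in G1/S, 1 was left with the percentile over detected probes and none with no filter. Of these 7 calls, none held without each array, and the adjusted p reached 0.0885 for POLD1 (without DMSO replicate 1 or 2 or combination replicate 1), and 0.193 for CCND2 and 0.142 for BUB1 (without any 1 of the DMSO, UNC0638 or combination arrays). All 62 measured genes of ribosome biogenesis stayed uncalled, with values from -0.73 to 0.15 and a median of -0.38, and 8 were called lower with the replicate number as a block. The low medians came more from replicate 1 than from replicate 2. With same-numbered arrays compared, they were -0.52 and -0.16 for G1/S and -0.25 and -0.10 for G2 and mitosis. For ribosome biogenesis they were -0.64 and -0.14.

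Among CDK inhibitors and p53 targets 3 of 29 rose (5 with the block) and none fell. GDF15, a stress-induced cytokine of the TGF-β family, rose from -2.83 and -2.95 to 0.23 and -0.45 (2.78, SE 0.29, adjusted p = 0.00247), and was at -0.50 and -1.14 with GSK126 alone and at -3.37 and -3.19 with UNC0638 alone. SESN1, which restrains mTORC1, rose by 1.79 (adjusted p up to 0.0672 without either DMSO array or combination replicate 2), and the death receptor FAS by 0.60 (up to 0.201 without any 1 of the 8 arrays). In the BCL2 family and caspases, with 3 of 29 called higher (6 with the block) and 1 lower, the BH3-only gene HRK rose by 0.86 and CFLAR, the inhibitor of caspase-8, fell by 0.78 (log2 fold change -0.78). Their adjusted p reached 0.106 and 0.107 without any 1 of the DMSO or UNC0638 arrays or combination replicate 1, and for CFLAR also without combination replicate 2. TERT, the reverse transcriptase of telomerase, was at 1.87 and 2.59 with DMSO and at -1.14 and 0.40 with the combination (-2.61, SE 0.55, adjusted p = 0.0283, and up to 0.125 without either DMSO array or combination replicate 1), and was the 1 gene called of 13 for telomerase and shelterin (2 with the block).

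The zinc finger genes of chromosome 19, most of which encode KRAB repressors of transposable elements, were the list with the most falls. Of 184 measured, 67 were called lower (36.4%) and 2 higher, with a median of -0.66, or -0.55 with no filter, since 18 passed through the DMSO arrays alone. The 61 that fell and were measured in both groups had log2 fold changes from -2.25 to -0.56, and for the other 6 the bounds ran from 1.5-fold to 3.67-fold. ZNF556 was at -0.48 and -0.84 on the DMSO arrays and at -2.93 and -2.88 on the combination arrays (-2.25, SE 0.23, adjusted p = 0.00222). ZNF880 was at -2.44 and -1.75 with DMSO and at -3.60 and -4.09 with the combination (-1.75, SE 0.27, adjusted p = 0.0102). In both, the combination arrays lay clearly below the DMSO arrays, and the calls held whichever array was left out.

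The list followed UNC0638 more than GSK126 in its medians, which were -0.52 with UNC0638 alone, -0.14 with GSK126 alone and -0.66 with both, all against the same DMSO arrays. Against the single agents directly, 18 members were called lower with both than with GSK126 and 1 lower than with UNC0638. Over all probes these shares were 0.615% and 0.69%. ZNF880 was at -3.29 and -3.52 with UNC0638 and at -2.13 and -2.13 with GSK126. The 2 that rose were ZNF541, a testis gene (at least 4.93-fold, adjusted p = 0.000385), and ZNF358 (1.32, adjusted p up to 0.104 without any 1 of the 4 arrays compared). Members are similar in sequence and many lie side by side, so they are not independent of each other. The count of 67 became 26 without DMSO replicate 1, 34 without DMSO replicate 2, 31 without combination replicate 1, 35 without combination replicate 2, 35 with no filter and 38 with only the 4 arrays in the fit. Among the alternatives, the list's median ranged from -0.77 to -0.36.

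Cancer-testis antigens, which are normally silent outside the germ line, held 7 called higher of 24 measured (29.2%) and none lower, or 11 and 2 with the block. The median was 0.49, and 0.13 with no filter over the 41 on the array. SPANXB1, a sperm protein gene on chromosome X, was at -2.44 and -1.55 with DMSO and at 4.67 and 3.45 with the combination on the probe used for the list (6.05, SE 0.45, adjusted p = 0.000689). It was at 3.24 and 2.85 with GSK126 alone and at 0.02 and -0.26 with UNC0638 alone. SPANXA1 rose at least 25.3-fold, SSX1 at least 5.18-fold and XAGE3 at least 3.35-fold, each from a level not well above background, and SSX1 and XAGE3 were higher than with either single agent (adjusted p of 0.0019 and 0.0016, and of 0.00078 and 0.00065). Members of the SPANX and SSX families are near copies. Of 59 genes of germline development and meiosis 13 were measured, with a median of -0.10. Of the 13, 2 were called lower (15.4%) and none higher. TEX19 fell by 2.28 and TDRD10 by 1.52 (log2 fold changes -2.28 and -1.52). The call for TDRD10 did not hold without combination replicate 1.

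Classical polycomb targets were mostly not measurable. Of 39 HOX genes 6 passed the filter and 2 rose, HOXB2 from -3.03 and -2.77 to -1.06 and -1.19 (1.78, SE 0.16, adjusted p = 0.00151) and HOXB4 by 0.58 (adjusted p up to 0.163 without any 1 of the 8 arrays). HOXB2 was at -1.26 and -1.29 with GSK126 alone and at -3.21 and -2.97 with UNC0638 alone. Of 121 other developmental transcription factors 35 passed, 4 rose and 1 fell, with a median of 0.00. TBX15 rose at least 4.7-fold (adjusted p = 0.00258), and was at -1.59 and -1.39 with UNC0638 alone, above its combination arrays at -2.00 and -2.32. TBX21 (T-bet) rose at least 5.91-fold and FOXA2 by 2.77, with adjusted p up to 0.185 without DMSO replicate 2 or any 1 of the UNC0638 or combination arrays for TBX21 and up to 0.134 without DMSO replicate 1 or any 1 of the GSK126 or combination arrays for FOXA2. TBX3 rose at least 1.4-fold and SOX8 fell by 0.73 (log2 fold change -0.73), with adjusted p up to 0.185 and 0.0988 without any 1 of the DMSO or combination arrays, or of the GSK126 arrays for TBX3 and the UNC0638 arrays for SOX8.

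Of 23 imprinted genes 4 rose (8 with the block) and 1 fell. TFPI2, a protease inhibitor, was at -6.70 and -6.34 with DMSO and at -0.59 and -0.53 with the combination, at least 14.2-fold higher (adjusted p = 0.000934). PPP1R9A rose by 1.72, ATP10A by 0.87 and ZDBF2 at least 2.68-fold (adjusted p without combination replicate 1 of 0.0574 for PPP1R9A and 0.0581 for ZDBF2, and up to 0.129 for ATP10A without DMSO replicate 2 or any 1 of the UNC0638 or combination arrays), and ZNF331 fell by 1.30 (log2 fold change -1.30, adjusted p = 0.00371).

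In the S100 family of calcium-binding proteins 4 of 10 rose, among them the subunits of calprotectin: S100A8 went from -5.07 and -6.10 to 2.87 and 0.72 (at least 73.1-fold) and S100A9 from -6.72 and -6.36 to 1.59 and 0.10 (at least 37.7-fold). S100A10 rose by 1.46 (adjusted p = 0.00245) and S100A13 by 0.91 (adjusted p up to 0.155 without DMSO replicate 1 or any 1 of the UNC0638 or combination arrays). Of 6 measured globins 3 rose and 1 fell. HBB and HBD, at the adult end of the beta cluster, rose at least 7.75-fold and 5.77-fold, and the list probe for the fetal gene HBG1 by 3.90 (adjusted p = 0.0194, and up to 0.0914 without either DMSO array). HBA2, of the alpha cluster, fell by 1.23 (log2 fold change -1.23, adjusted p = 0.0205, and up to 0.091 without either DMSO array or combination replicate 1). HBG1 and HBG2 differ at few bases, so the HBG1 probes may read both.

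Among 140 measured long noncoding RNAs with a LINC name, 13 rose (9.29%) and 7 fell (5%), shares near those of all genes, and 12 were called lower with the block. The rises became 6 without DMSO replicate 1 and 5 without combination replicate 1. LINC00520 rose at least 9.22-fold (adjusted p = 0.00241). LINC00261 rose at least 11.8-fold, with adjusted p up to 0.0798 without any 1 of the 4 arrays compared.

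Of 16 histone genes with polyadenylated transcripts or expressed outside S phase, 2 rose and 1 fell. H2BC12 rose by 0.92 (adjusted p = 0.0138, and up to 0.0887 without DMSO replicate 2 or combination replicate 1). H4C8 fell by 0.75 (log2 fold change -0.75, adjusted p = 0.043, and up to 0.178 without any 1 of the 8 arrays).

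The genes with the largest rises came from many families. HULC, a long noncoding RNA first described in liver cancer, was at -5.53 and -6.29 with DMSO, not well above background, and at 3.15 and 1.90 with the combination, at least 121-fold higher (adjusted p = 0.000311, probe at chr6:8653917-8653976 of GRCh37). AGR2, a disulfide isomerase, rose at least 92.4-fold and was at 1.55 and 1.43 with GSK126 alone, -4.79 and -5.01 with UNC0638 alone, and 2.37 and 1.90 with both. ZP4, of the egg coat, rose at least 45-fold, and the second HBG1 probe at least 40.2-fold.

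Among genes measured in both groups, the long noncoding RNA UCA1 rose from -3.82 and -3.17 to 3.42 and 1.56 (5.99, SE 0.56, adjusted p = 0.00174). DDIT4L, an inhibitor of mTOR signalling, rose from -1.29 and -2.97 to 4.19 and 3.37 (5.91, SE 0.67, adjusted p = 0.00345), and KLK6, a secreted protease, from -3.98 and -3.62 to 2.25 and 1.26 (5.56, SE 0.58, adjusted p = 0.00247). In these 3 genes each agent alone gave levels between DMSO and the combination, such as 1.59 and 0.44 with GSK126 and 1.51 and 0.47 with UNC0638 for DDIT4L.

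The largest falls included growth factor and signalling genes. SYT12, a synaptotagmin, was at 2.11 and 1.49 with DMSO and at -1.61 and -1.19 with the combination (-3.20, SE 0.25, adjusted p = 0.000903). HGF, the ligand of the MET receptor, was at -0.58 and -0.94 with DMSO and at -3.84 and -3.96 with the combination (-3.14, SE 0.16, adjusted p = 0.000256, probe at chr7:81374349-81374408). With GSK126 alone it was at -1.82 and -1.80 and with UNC0638 alone at -2.17 and -2.29, so both arrays of each agent lay between DMSO and the combination. The combination was below each agent for SYT12 (adjusted p = 0.0087 and 0.0059) and for HGF (0.0021 and 0.0046).

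The pseudogene DPY19L2P3 went from 0.49 and 0.47 to -2.12 and -2.12 (-2.60, SE 0.13, adjusted p = 0.000234), and BEGAIN fell by 3.15 (log2 fold change -3.15, adjusted p = 0.0047). LBH, a transcriptional cofactor, went from 0.87 and 0.98 to -2.75 and -1.24 (-2.92, adjusted p = 0.0119, and up to 0.0643 without either DMSO array), but was at 1.67 and 1.92 with GSK126 alone and at -1.88 and -1.26 with UNC0638 alone. Bounded falls were at least 10.9-fold for CDC14C and 6.86-fold for CDC14B, which are near copies, and at least 6.07-fold for 1 of the 2 CEP192P1 probes, the other of which fell by 2.35 (log2 fold change -2.35). A second ASS1 probe fell by 2.33 (log2 fold change -2.33).

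**Figure D5:**
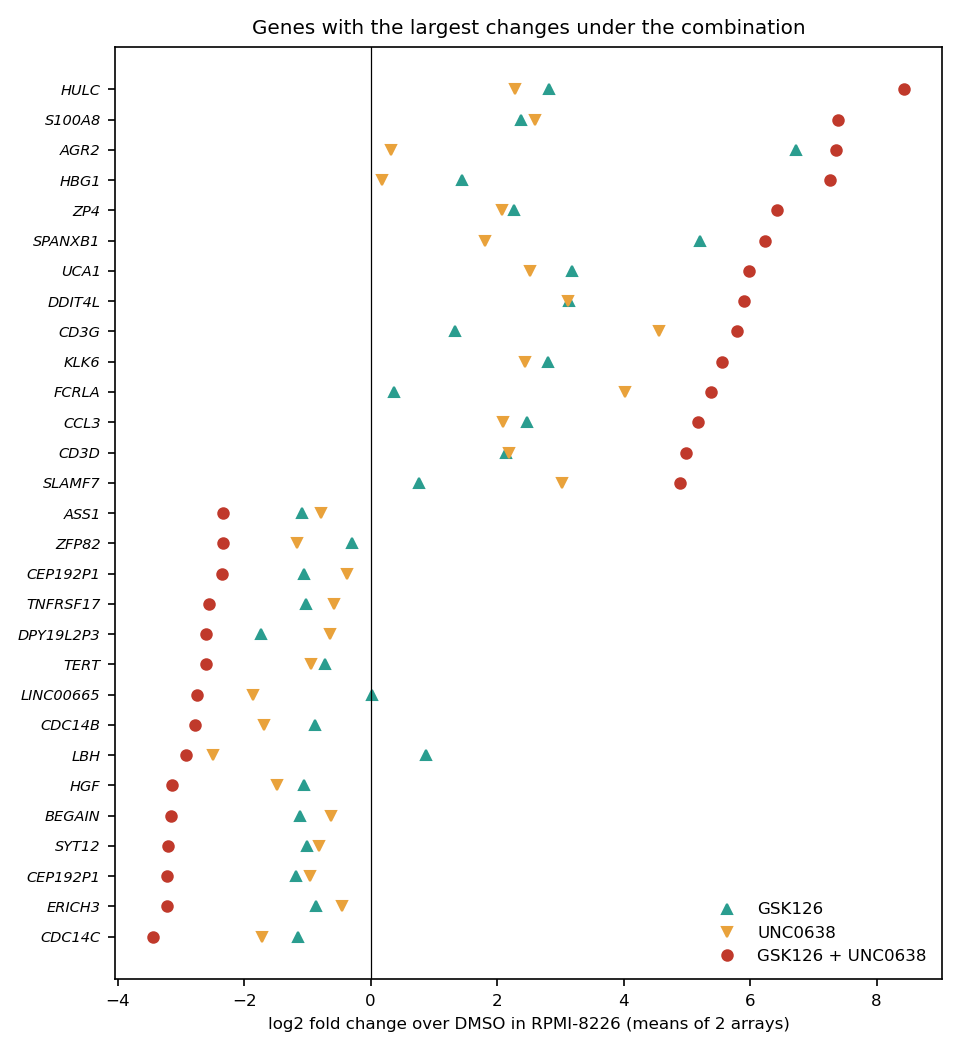
Log2 fold change over DMSO in RPMI-8226 (x axis, mean of 2 arrays minus mean of the same 2 DMSO arrays) with GSK126, UNC0638 or both, for probes among the largest rises and falls under the combination, including the measured difference of probes that were not well above background in 1 group. The plotted change is largest with the combination at every probe, which follows in part from the choice, since the probes were picked for their change under the combination. AGR2 and SPANXB1 are closest to it with GSK126 alone, and CD3G, FCRLA and LBH with UNC0638 alone.

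Across the whole table, 479 probes were called higher with the combination than with GSK126 alone (2.1%) and 140 lower (0.615%). Against UNC0638 alone 643 were higher (2.83%) and 157 lower (0.69%). Genes named above for a change against DMSO were picked on the same combination arrays, which tilts their comparisons with the single agents. With the replicate number as a block the 2 totals, 619 and 800, became 1339 and 1655. The first total went to 285 without GSK126 replicate 1 and 290 without combination replicate 1, and the second to 303 and 356 without UNC0638 replicates 1 and 2 and to 337 without combination replicate 1.

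The response of RPMI-8226 was also set against that of MM.1S to the same combination. The RPMI-8226 log2 fold change minus that of MM.1S was called above 0 for 2041 probes (8.97%) and below 0 for 1219 (5.36%), or 1442 genes (10.5%) and 818 genes (5.95%) with 1 probe each, among genes measured in RPMI-8226. Each line's arrays were on a slide of their own, so the slide and the line cannot be told apart for the size of this difference. With the block the 3260 probes became 4942. The amino acid response list is one example: its median over 57 members was -0.50 in RPMI-8226 and -1.26 in MM.1S, and the difference was called above 0 for 33 of the 57 and below 0 for 1. Of the 15 that fell in RPMI-8226 the difference was called for 8.

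Ribosome biogenesis (medians -0.38 and -1.03, 30 of 62 called above 0) and G1/S genes (-0.35 and -0.96, 20 of 56) went the same way. For the interferon-stimulated effectors the medians were 1.10 and 0.95, and 3 of 55 were called above 0 and 6 below. IFITM1, which fell in RPMI-8226, had a log2 fold change of 2.12 in MM.1S (adjusted p of the difference = 0.0003). IRF4 had a log2 fold change of -1.70 in RPMI-8226 and -1.19 in MM.1S, and the difference was not called (adjusted p = 0.14). BCL6 had 2.01 and 5.29 (adjusted p of the difference = 0.00033), the latter from DMSO arrays of MM.1S that did not read it well above background, and CD3D, a T cell receptor chain, had 4.99 and 0.13 (0.00011).

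Markers of other cell types were looked at because some of the genes above are known from other lineages. Of 47 such markers on the array in 5 lists, 26 were measured, 12 were called higher and 1 lower. Over all genes 8.59% were called higher and 4.94% lower. Of the measured markers, 2 of 6 for T and NK cells and 1 of 4 for monocytes and granulocytes passed through the combination arrays alone. So did 1 of 5 erythroid and 3 of 4 stromal markers. These had to be higher there, and the sums below cover measured markers only. For T and NK cells 5 of 6 measured markers rose. CD3G was at -2.51 and -3.44 with DMSO, 1.75 and 1.42 with UNC0638 alone and 2.95 and 2.68 with the combination, and CD3D was at -2.59 and -2.70 with DMSO and 2.42 and 2.27 with the combination. CD3E and NKG7 rose at least 6.78-fold and 4.92-fold and CD2 by 2.61 (adjusted p up to 0.137, and not called in 7 of the 8 fits without 1 array). CD8A had a log2 fold change of 0.02 on the probe used and of -0.74 on its second probe (adjusted p = 0.0247), and CD247, GNLY and KLRD1 were not measured above background.

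The summed intensity of the 6 T and NK markers, in multiples of the percentile, was 1.75 to 1.95 on the DMSO arrays and 13.8 to 15.8 on the combination arrays. Each sum adds linear intensities of different probes, so the brightest weigh most and a change in a dim one can be hidden. For monocytes and granulocytes 2 of 4 measured markers rose, CD163 (at least 19.4-fold, a call lost without either DMSO array or combination replicate 1) and CD14 (2.67). Their summed intensities were 0.626 to 1.09 with DMSO and 5.3 to 6.09 with the combination, over the 4 measured markers. The list's other markers MPO, ELANE, AZU1, FCN1 and VCAN were not measured. Erythroid sums were 26.1 to 54.7 with DMSO and 33 to 42.3 with the combination, with HBB the 1 called of 5, and AHSP, ALAS2, EPB42 and GYPB not measured.

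Stromal sums were 0.459 to 0.827 with DMSO and 0.967 to 2.32 with the combination, with COL1A2, LUM and ACTA2 called higher of 4 (ACTA2 with adjusted p up to 0.116 without either combination array) and COL1A1, COL3A1, FAP, PDGFRB, POSTN and THY1 not measured. Epithelial sums were 130 to 137 and 105 to 108, with CLDN4 called higher and EPCAM lower of 7 (adjusted p up to 0.235 for CLDN4 without any 1 of the DMSO, UNC0638 or combination arrays and 0.0802 for EPCAM without DMSO replicate 1 or combination replicate 1) and CDH1, KRT19 and KRT5 not measured. All 10 plasma cell markers were measured, 1 was called higher and 3 lower (5 with the block), and their sums were 319 to 379 with DMSO and 221 to 274 with the combination. The part of other cells in these results was not tested.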

How the data were processed

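Total RNA of RPMI-8226 and MM.1S cells, 2 arrays for each of 4 treatments, was labelled with Cy3 and hybridised to Agilent single-colour human arrays. The deposited files hold the processed signal of each spot as a linear intensity, made by the authors with Feature Extraction 10.7 per the labels, with local background subtracted. The study names GeneSpring for its arrays. Its normalization and filter are not given in the sources used here. The series value table, deposited as linear intensity too, matched these signals rounded to 3 digits at 99.99% or more of probes on each array and served as an alternative.

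Control spots and outlier flags were left out, spots of 1 probe were averaged, log2 values were taken and each array's 75th percentile was subtracted. A probe was kept if 1 of the 2 groups compared had it well above background on each of its arrays. Probe positions are those in the files (GRCh37), and 31410 of 50599 probes were matched to a RefSeq symbol by accession, symbol or synonym. In lists a gene is represented by its probe with the highest mean over the 8 RPMI-8226 arrays.

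The 8 RPMI-8226 arrays were fitted together with limma 3.58.1 in R 4.3.3 (lmFit and eBayes), with Benjamini-Hochberg adjustment over all kept probes and a threshold of 0.05. The difference between lines was tested in 1 fit over 16 arrays. The scripts were tested on simulated data. Named genes were those the study names, the 10 largest called rises and falls measured in both groups, the 5 largest bounds each way, and up to 4 called members of each list with the largest change. The members and the gene lists were chosen with earlier results of these data known. Some genes picked by these rules and 1 of the 33 pathway lists are not reported here. Same-numbered arrays deviated together (correlation of deviations 0.264 to 0.425 in all 6 pairs of treatments), and the number matches the row of the slide and a date in the files whose meaning is not stated. All RPMI-8226 arrays were on 1 slide, and treatment matches its column. Alternatives were quantile normalization, the percentile over detected probes, normexp background correction with an offset of 50, the series value table, no filter, a filter on all 4 arrays, a replicate block, an intensity trend, only the groups compared, all 16 arrays, and leaving out each array.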

Additional observations from a re-analysis of the deposited data

Results flagged for a closer look

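The response to the combination differed between RPMI-8226 and MM.1S, by the interaction term in 1 fit over 16 arrays, for 3260 probes, among them 65 of the 122 named ones (adjusted p from 1.73e-07 to 0.0481). The values are the log2 fold change in RPMI-8226 minus that in MM.1S, and slide and line cannot be told apart. For 44 named probes the value was above 0 and for 21 below. Of all 22759 probes, 8.97% were called above 0 and 5.36% below. Apart from genes the study names, the named probes were picked for a large change in RPMI-8226, which is part of this value. Their higher share is therefore not read as a result. In 22 of the 65 each line read the probe well above background under both treatments. In the other 43 at least 1 of these 4 groups did not, so those values rest on a signal near background, their sizes are not measured differences, and they have no order.

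Of the 22, the chemokine CCL3 was at 5.67, IFI27 at 4.63, AIM2 at 1.66 and IRF7 at 0.85. SLAMF7 was at 5.73, with a log2 fold change of 4.89 in RPMI-8226 and -0.84 in MM.1S, CD3D at 4.86 and HLA-DMA at 1.97. The list probe of HBG1 was at 3.69, GDF15 at 2.69, PSAT1 at 1.91, CHAC1 at 1.81, IER3 at 1.76 and EZH2 at 0.805. CHAC1 had a log2 fold change of -2.10 in RPMI-8226 and -3.91 in MM.1S, so its value above 0 marks the smaller fall. Below 0 were DPY19L2P3 at -4.22, TNFRSF17 at -1.99, ZNF556 at -1.85, ICAM1 at -1.84, ERN1 at -1.42, TXNDC5 at -1.11 and ATF6 at -0.695, which fell in RPMI-8226, and S100A10 and H2BC12 at -1.14 and -0.931, which rose less there than in MM.1S.

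Of the 43, values above 0 were 7.79 (HULC), 7.38 (AGR2), 6.46 (ZP4), 6.41 (SPANXA1), 5.99 (TFPI2), 5.87 and 4.49 (the 2 SPANXB1 probes), 3.83 (SSX1) and 3.39 (XAGE3). Immune genes among them were at 5.53 (CCL4), 4.11 (CXCL6), 2.29 (TLR7), 4.51 (ITGAX), 3.73 (CD3G) and 2.53 (MS4A1). The S100 and globin genes were at 4.89 (S100A8), 4.34 (S100A9), 4.14 (the second HBG1 probe), 4.05 (HBB) and 3.13 (HBD). Noncoding RNAs were at 5.58 (LINC00261), 5.29 (LINC00520), 3.96 (UCA1), 3.42 (LINC02860) and 2.31 (LINC02873). Factors were at 4.43 (ZNF541), 3.49 (TBX21), 2.81 (FOXA2) and 2.01 (TBX15), and HRK and ZDBF2 were at 3.33 and 2.66.

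Below 0, BCL6 was at -3.27, since it rose in both lines and by more in MM.1S. Genes that fell in RPMI-8226 were at -3.96 (LBH), -3.87 (SYT12), -3.48 (HGF), -3.18 (CDC14C), -3.1 (BEGAIN), -3.08 (1 CEP192P1 probe), -2.84 (CDC14B), -2.31 (ZFP82), -2.09 (ZNF331), -1.83 (STC2) and -1.72 (ZNF880).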

How the results depend on the processing

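In RPMI-8226, 2932 probes were called for the combination against DMSO, 619 against GSK126 and 800 against UNC0638, and 3260 for the difference between lines. With the replicate number as a block, which pairs same-numbered arrays, these counts were 4990, 1339, 1655 and 4942. Of the named probes the block changed 1 call, KLF2, which it added. With no filter on dim probes the first count was 1638. With the filter on all 4 arrays, the counts against GSK126 and UNC0638 were 161 and 347. Fitting the compared arrays alone, the first was 1592, that against UNC0638 494 and the line difference 1538. A fit over all 16 arrays gave 6548, 2193 and 2658 for the 3 comparisons within RPMI-8226. Leaving out 1 array gave 1030 to 2642, 285 to 762, 303 to 865 and 2237 to 4112, in fits that assume the lone array left in a group varies like the others. Of 118 named probes called, 63 were called without each array, and no called probe changed direction under any alternative. Losses were 47 without DMSO replicate 1 or combination replicate 1, 36 without DMSO replicate 2, 35 without combination replicate 2, 18 without either UNC0638 array, 10 without either GSK126 array, 29 with no filter, 26 with the compared arrays alone, 11 with quantile normalization, 10 with the percentile over detected probes, 4 with normexp, 2 with all 16 arrays, and 1 each with the intensity trend and the series value table. The filter on all 4 arrays removed 42 of the called probes before the test, and 1 of the other 76 lost its call. The cause of these changes was not tested. With 2 arrays per treatment and about 47.9% of spots above background, changes between low signals were not detectable.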
